A study of Mus musculus with 10 samples.

Results

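Seven-transmembrane receptors of the Mas-related family were followed through RNA-seq of mouse dorsal root ganglia (DRG), the ganglia that hold the cell bodies of somatosensory neurons. The 7 genes Mrgprd, Mrgpra3, Mrgprx1, Mrgprb4, Mrgprb5, Mrgpre and Mrgprf were chosen by name, without use of a measured value, from the 54309 genes quantified. All 7 passed the low-count filter, which kept 20836 genes. The study asked how early transcription in DRG after nerve injury differs between the sexes. Female and male C57BL6/J mice (strain C57BL/6 in the labels) aged 6 to 8 weeks were used, none carrying a transgene or given a drug as treatment. With isoflurane as the anesthetic, they had the left sciatic nerve either cut through (axotomy) or exposed and left whole (sham). Lumbar L4 and L5 ganglia of the operated side were taken 24 h later. Each library pooled the ganglia of 2 mice, giving 10 libraries: 2 per sex for sham and 3 per sex for axotomy. The labels do not tie a library number to a shared batch, and p-values measure the spread between these pools.

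Mas-related receptors are G protein-coupled receptors of small-diameter sensory neurons, and they are used to tell classes of unmyelinated skin afferents apart. Several of them detect substances that cause itch: ligand binding activates G proteins and phospholipase C, and channels such as Trpa1 then depolarise the ending. Mrgprd, a receptor for beta-alanine, marks the non-peptidergic nociceptors of the epidermis. Mrgpra3, the receptor for the drug chloroquine, and Mrgprx1, a receptor for fragments of proenkephalin, mark itch neurons. Mrgprb4 marks C-fibre afferents of hairy skin that respond to stroking, and Mrgprb5 is its closest relative among the 7. Mrgpre and Mrgprf have no settled ligand, and Mrgprf is also known from smooth muscle and fibroblasts. The 7 genes are therefore not all markers of itch neurons, and bulk ganglia do not show which cells hold a transcript.

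All 7 genes lie on mouse chromosome 7 (GRCm38, Gencode M21 gene models). Mrgpra3 (chr7:47588950-47601372), Mrgprx1 (chr7:48020971-48027597), Mrgprb5 (chr7:48167983-48169019) and Mrgprb4 (chr7:48198070-48199288) lie on the minus strand in 1 cluster, and Mrgpre (chr7:143778363-143784500, minus strand), Mrgprf (chr7:145300828-145309557, plus strand) and Mrgprd (chr7:145314835-145324086, plus strand) lie far from it. Mrgprb4 and Mrgprb5 each consist of 1 exon and are 29.1 kb apart. Mrgprf and Mrgprd are neighbours with 5.3 kb between them. The coding sequences of Mrgprb4 and Mrgprb5 were 84.5% identical, while the other 20 pairs of the 7 genes were 51.6% to 63.4% identical.

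Mrgprb4 and Mrgprb5 are shown in sequence because these near neighbours, alike in coding sequence and upstream DNA, differed in their response to axotomy. The 140 bases below end at the base before the Gencode start of Mrgprb4 (chr7:48199289-48199428, minus strand) and at the matching base upstream of Mrgprb5 (chr7:48169096-48169235, minus strand), from RefSeq on GRCm38.p6, 5′ to 3′. Capitals mark the 30 positions at which the pair differs, and 78.6% of the positions are identical.
Mrgprb4: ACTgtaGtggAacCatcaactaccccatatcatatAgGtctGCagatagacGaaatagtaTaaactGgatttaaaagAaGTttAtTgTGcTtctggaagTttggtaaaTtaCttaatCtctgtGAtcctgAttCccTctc
Mrgprb5: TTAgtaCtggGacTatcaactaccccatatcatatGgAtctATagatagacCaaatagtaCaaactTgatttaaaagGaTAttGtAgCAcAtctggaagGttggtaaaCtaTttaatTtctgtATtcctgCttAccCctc
Over whole 300-base promoter windows, which RefSeq gave for 5 of the 7 genes and not for Mrgpra3 and Mrgprf, Mrgprb4 and Mrgprb5 were 82.0% identical. The other 9 pairs of windows were 44.8% to 48.9% identical.

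Libraries held 55258476 to 90111671 estimated counts. Pan-neuronal marker genes (10 genes, none at 0) summed to 8432 to 8747 CPM (counts scaled to library size) in female sham, 8380 to 8814 in female axotomy, 8810 to 9228 in male sham and 7192 to 8478 in male axotomy libraries. This sum was lower in every male axotomy library than in every male sham library, and it overlapped between the female groups. Levels are given as TPM, a share of all transcripts that is corrected for transcript length. Log2 fold changes come from edgeR on estimated counts scaled by TMM, a change of scale that matters here: over all genes tested, the median log2 ratio of TPM, axotomy over sham, was -0.12 in females and -0.165 in males, whereas the median TMM-scaled log2 fold change was 0.00 in females and 0.04 in males. A gene passed at an adjusted p (Benjamini-Hochberg over all genes tested) under 0.1, the threshold of the study.

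In sham ganglia Mrgprd was the most abundant of the 7, at 100.4 ± 7.00 TPM (SD, n = 4). Mrgprx1 followed at 32.8 ± 1.63 TPM, and the ranges of these genes did not overlap with each other or with the next gene. Mrgpra3 (17.9 ± 1.43 TPM), Mrgprb4 (17.1 ± 1.55), Mrgprb5 (14.6 ± 3.59) and Mrgpre (12.8 ± 0.889) formed a middle group in which the ranges of each neighbour in the order overlapped. Mrgprf was lowest, at 2.45 ± 0.319 TPM, below every other gene in all 4 sham libraries. Summed over the 7 genes, sham libraries held 187 to 218 TPM, of which Mrgprd made up 49.9% to 51.5%.

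**Figure D1:**
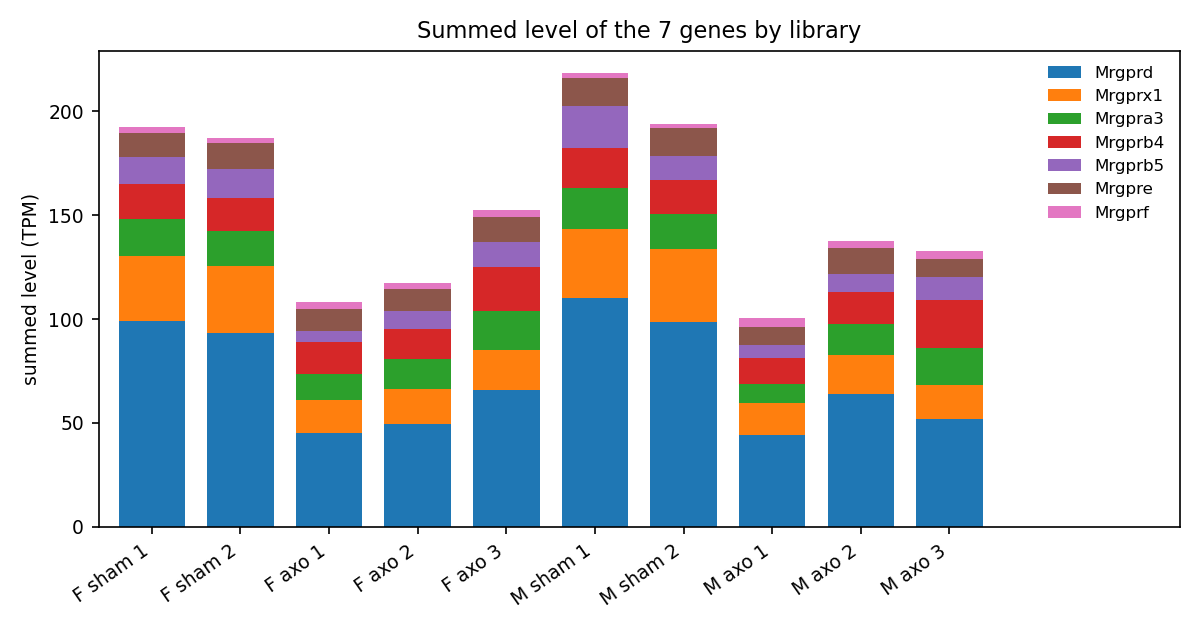
Summed level of the 7 receptor genes in each of the 10 libraries (y axis, TPM; each bar is 1 library of 2 mice, each colour 1 gene). Sham libraries reach 187 to 218 TPM and axotomy libraries 101 to 153 TPM, and the blue block of Mrgprd shrinks most.

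At 24 h after axotomy the order had changed below the top. Mrgprd stayed first at 53.3 ± 9.30 TPM (n = 6). Mrgprx1 (17.2 ± 1.58 TPM) now overlapped with Mrgprb4 (17.0 ± 4.28) and Mrgpra3 (14.6 ± 3.48), and was higher than Mrgprb4 in 4 of 6 libraries, against 4 of 4 in sham. Mrgpre (10.5 ± 1.64 TPM) was above Mrgprb5 (8.71 ± 2.55) in 5 of 6 libraries, whereas Mrgprb5 was above Mrgpre in 3 of 4 sham libraries. The sum over the 7 genes was 101 to 153 TPM, and Mrgprd made up 39.0% to 46.4% of it, a smaller share than in any sham library.

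Axotomy thus lowered some of these receptors and left others without a detected change. In females 2 of the 7 genes fell and none rose, where 9.7% of all genes tested fell and 10.5% rose. In males 3 fell and 1 rose, where 19.4% of all genes fell and 22.6% rose. In the average over both sexes 3 fell and 1 rose, against 22.2% and 24.4% of all genes. With libraries scaled by their pan-neuronal marker sum instead of TMM, which raised the median gene by 0.20 log2 units in males and moved it by -0.01 in females, 1815 genes fell and 7078 rose in males, and 2 of the 7 receptors fell and 1 rose. The median log2 fold change of the 7 genes in the average was -0.14, against 0.02 over all genes tested. In bulk tissue, fewer cells of a type and less RNA per cell cannot be told apart.

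**Figure D2:**
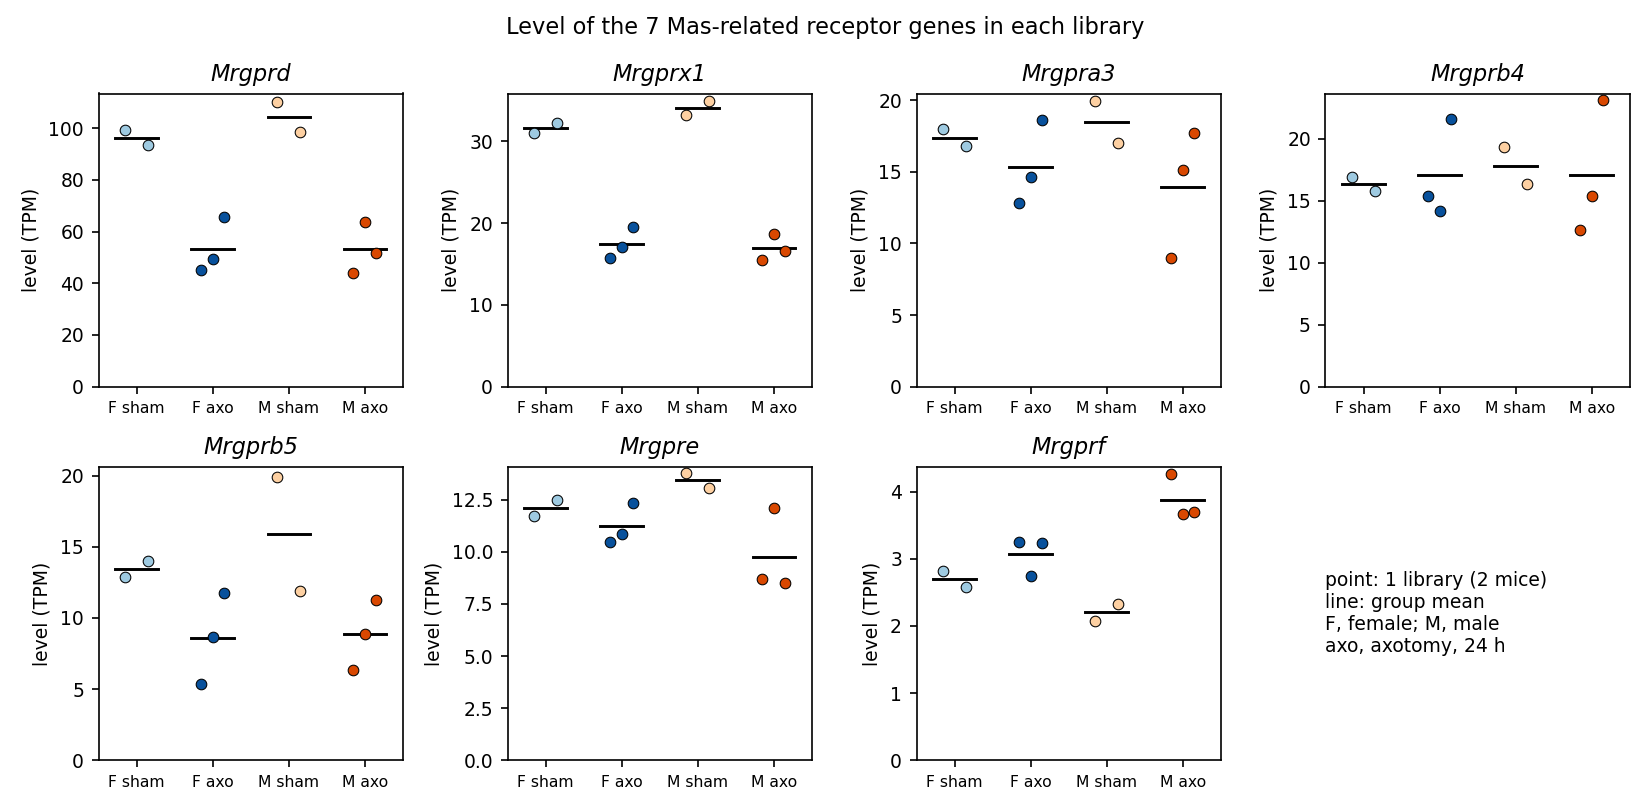
Level of each gene (y axis, TPM, starting at 0; scales differ between panels) in each library, by sex and operation. Points are libraries and lines are group means: Mrgprd and Mrgprx1 are lower in all 6 axotomy libraries than in all 4 sham libraries, Mrgprb4 and Mrgpra3 overlap, and Mrgprf is higher in the male axotomy libraries.

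Mrgprd, the receptor of non-peptidergic epidermal endings, had levels of 99.2 and 93.5 TPM in female sham and 110.1 and 98.6 TPM in male sham libraries. After axotomy it stood at 45.1, 49.2 and 65.6 TPM in females and at 44.2, 63.8 and 51.7 TPM in males. Every axotomy library was below every sham library. Mrgprd fell by 0.74 on the log2 scale in females (SE 0.135, adjusted p = 0.00727) and by 0.78 in males (SE 0.134, adjusted p = 0.00248), and in the average over both sexes it was 1.69-fold lower (adjusted p = 0.000255). These values rest on 5064 to 12783 counts per library, more than for any other of the 7 genes. No 31-base stretch of its transcript occurred in another gene's transcripts, so its counts could not be split with a relative.

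Mrgprx1, the receptor for proenkephalin fragments in itch neurons, was at 30.997 and 32.3 TPM in female sham and 33.2 and 34.9 TPM in male sham libraries. After axotomy it was at 15.7, 17.0 and 19.5 TPM in females and 15.5, 18.6 and 16.6 TPM in males. The groups again stood clear of each other, and the libraries within a group lay closer together than for Mrgprd. The log2 fold change was -0.75 in females (SE 0.094, adjusted p = 0.00131) and -0.81 in males (SE 0.093, adjusted p = 0.000576), and the average was 1.71-fold lower (adjusted p = 3.57e-05). Of the 31-base stretches of its transcript, 22.2% were shared with other genes, mainly pseudogenes of the same cluster, and reads from those stretches were divided by the quantification.

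Mrgpra3, the chloroquine receptor of itch neurons, behaved otherwise. It was at 18.0 and 16.8 TPM in female sham and 19.9 and 17.0 TPM in male sham libraries, and after axotomy at 12.8, 14.6 and 18.6 TPM in females and 9.01, 15.1 and 17.7 TPM in males. The groups overlapped in both sexes, and the first male axotomy library was the lowest. The average log2 fold change was -0.14 (95% interval -0.50 to 0.23, adjusted p = 0.554), an interval that leaves room for a fall of up to 0.50 log2 units. In its transcript 21.4% of 31-base stretches were shared with other genes, mostly further Mrgpra genes.

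Mrgprb4, the receptor of stroking-sensitive C fibres, was at 16.9 and 15.8 TPM in female sham and 19.3 and 16.3 TPM in male sham libraries. Axotomy libraries held 15.4, 14.2 and 21.6 TPM in females and 12.6, 15.4 and 23.1 TPM in males. They spread to both sides of the sham libraries in each sex. The average log2 fold change was 0.16 (95% interval -0.23 to 0.55, adjusted p = 0.512).

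Mrgprb5, the neighbour of Mrgprb4, was at 12.9 and 14.0 TPM in female sham and 19.9 and 11.9 TPM in male sham libraries. After axotomy it was at 5.33, 8.69 and 11.7 TPM in females and 6.35, 8.90 and 11.3 TPM in males. In TPM all 6 axotomy libraries were below all 4 sham libraries, although by a narrow margin (11.7 against 11.9 TPM), and the first male sham library stood above the rest. TMM scaling brought the means closer, from 14.65 to 13.65 in sham and from 8.71 to 9.065 after axotomy. Whether the libraries stay apart on that scale was not tested. The log2 fold change was -0.54 in females (SE 0.316, adjusted p = 0.29) and -0.64 in males (SE 0.312, adjusted p = 0.141), neither of which passed. The male value ran from -0.24 without the first male sham library (adjusted p = 0.705) to -0.98 without the second (adjusted p = 0.0957), and it also passed without male axotomy library 3 (-0.89, adjusted p = 0.064) and without female axotomy library 1 (-0.64, adjusted p = 0.0925). In the average Mrgprb5 fell by 0.59 on the log2 scale (SE 0.222, adjusted p = 0.0572), a call that was lost without any of 4 single libraries: without the first male sham library the value was -0.39 (adjusted p = 0.256). Counts of 135 to 478 per library stood behind these values.

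Mrgpre, a receptor with no settled ligand, was at 11.7 and 12.5 TPM in female sham and 13.8 and 13.1 TPM in male sham libraries. It was at 10.5, 10.9 and 12.4 TPM after axotomy in females and at 8.70, 12.1 and 8.50 TPM in males. In TPM the female groups overlapped and the male groups did not. On that scale the median gene was itself lower after axotomy in males (log2 ratio -0.165), and separation on the TMM scale was not tested. Mrgpre fell by 0.27 on the log2 scale in males (SE 0.105, adjusted p = 0.0743), whereas the female log2 fold change was 0.01 (adjusted p = 0.972). The male call was lost with pan-neuronal scaling, where the log2 fold change was -0.07 (adjusted p = 0.624), a scale set by a marker sum that was itself lower in every male axotomy library than in the male sham libraries. It was also lost without either male sham library or without male axotomy library 1 or 3 (adjusted p = 0.172 to 0.268). Without male axotomy library 2, Mrgpre also passed in the average, at -0.19 (adjusted p = 0.0136).

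Mrgprf was the only one of the 7 that rose. It was at 2.82 and 2.58 TPM in female sham and 2.08 and 2.33 TPM in male sham libraries, and after axotomy at 3.25, 2.75 and 3.24 TPM in females and 4.26, 3.67 and 3.70 TPM in males. The male groups stood apart and the female groups overlapped. The log2 fold change was 1.02 in males (SE 0.162, adjusted p = 0.00182) and 0.31 in females (SE 0.159, adjusted p = 0.229), and in the average Mrgprf was 1.58-fold higher (adjusted p = 0.00128). With 158 to 380 counts per library it had the fewest counts of the 7 genes on average. Of its 2 annotated transcripts, the shorter one received at most 8.49 counts in a library.

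Markers of other cells moved beside Mrgprf in males, and some of them in females, where Mrgprf did not pass. Of all genes tested, 22.6% rose and 19.4% fell in males, and 10.5% rose and 9.7% fell in females. All 6 fibroblast and meninges markers rose in males, and their summed level was 684 to 720 CPM in male sham and 958 to 1837 CPM in male axotomy libraries. In females the same sum was 884 to 919 CPM in sham and 699 to 783 CPM in axotomy libraries, the opposite order, with 2 markers lower and none higher. Satellite glia markers summed to 1212 to 1255 CPM in male sham and 1574 to 1763 CPM in male axotomy libraries, with 4 of 5 genes higher. In females they summed to 1267 to 1331 CPM in sham and 1318 to 1456 CPM in axotomy libraries, with 1 gene higher and 2 lower. Fabp7 fell in females (-0.99, adjusted p = 0.00437) and rose in males (0.70, adjusted p = 0.00929). All 6 macrophage markers rose in males, from a summed 31.3 to 35.1 CPM to 59.1 to 109 CPM, whereas 1 rose in females, with sums of 40.9 to 43.3 CPM and 42.6 to 51.8 CPM. Smooth muscle and pericyte markers (7 genes) were summed higher after axotomy in both sexes: 231 to 254 CPM in sham and 262 to 302 CPM after axotomy in males, with 2 genes higher and 2 lower, and 235 to 254 CPM and 285 to 310 CPM in females, with 2 genes higher and 1 lower. In males the smooth muscle and pericyte counts were near the shares of all genes. The smooth muscle and pericyte sum is led by Rgs5 (a mean of 13200 counts, the next being Pdgfrb at 2160), which rose in both sexes. Pdgfrb fell in both sexes, Myh11 fell in males (-0.75, adjusted p = 0.0425), and Acta2 and Cnn1 passed in neither sex. No marker of these lists was at 0 in every library, and the part of these cells in the Mrgprf result was not tested.

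**Figure D3:**
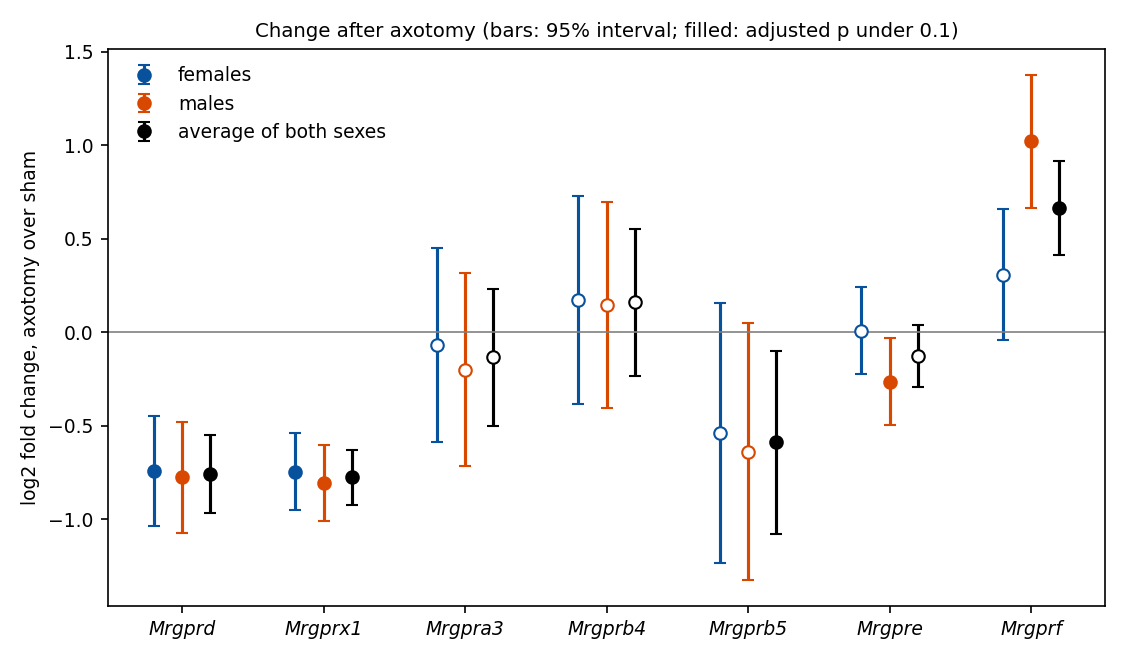
Log2 fold change, axotomy over sham, of each gene (y axis) in females, males and the average of both sexes from edgeR, with 95% intervals; filled points passed at an adjusted p under 0.1. Mrgprd and Mrgprx1 lie near -0.8 in both sexes, and Mrgprf lies at 0.31 in females and 1.02 in males.

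No sex difference passed the test for any of the 7 genes. For the male response minus the female response the lowest adjusted p was 0.286, where 0.072% of all genes passed. At an unadjusted p under 0.05 stood 1 of the 7 genes, and 2366 of all 20836 genes tested. The 1 gene was Mrgprf, with a difference of 0.71 log2 units (95% interval 0.22 to 1.21, unadjusted p = 0.00887). For Mrgprd the difference between the sexes in response was -0.03 (95% interval -0.46 to 0.39), and for Mrgprx1 it was -0.06 (95% interval -0.35 to 0.23). In sham, none of the 7 genes passed between males and females, where 0.0432% of all genes did, and at an unadjusted p under 0.05 the counts were 0 of the 7 genes and 682 of all 20836. After axotomy again none passed, where 1.63% of all genes did, and Mrgprf had the lowest adjusted p (0.217, log2 difference of males over females 0.40). DESeq2 also called 0 genes in each of these comparisons. Without the second male axotomy library, the most deeply sequenced of the 10, 2 genes passed both for the difference in response and between the sexes after axotomy: Mrgprf (differences of 0.80 and 0.49, adjusted p = 0.0692 and 0.0597) and Mrgpre (-0.40 and -0.26, adjusted p = 0.0637 and 0.0487).

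Ratios between genes within a library do not depend on library scaling, and they showed which receptors moved unequally. The test was chosen after the values had been seen: for each of the 21 pairs, the log2 ratio of TPM in 6 axotomy libraries was compared with that in 4 sham libraries by a two-sided exact permutation test, whose smallest possible p among 210 arrangements is 0.00476. The arrangements exchanged labels over all 10 libraries and did not keep the sexes apart, and a test that exchanges labels within each sex was not run. In 14 pairs the Benjamini-Hochberg p over the 21 ratios was under 0.05, and in 11 pairs the sham and axotomy libraries did not overlap. The 21 ratios reuse the same 7 genes, so these pairs are not separate results. Ratios between other genes were not compared, so the share expected among them is not known.

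Mrgprd and Mrgprx1 fell side by side. Mrgprd was 2.83 to 3.32 times the level of Mrgprx1 in sham and 2.84 to 3.43 times after axotomy. The mean log2 ratio was 1.61 ± 0.11 in sham and 1.62 ± 0.12 after axotomy, a difference of 0.01 (exact permutation p = 0.867), and leaving out any 1 library kept the difference between -0.03 and 0.05. These are genes of different neuron classes with different ligands, whose coding sequences are 56.7% identical.

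Mrgprb4 and Mrgprb5, in contrast, moved apart. Mrgprb4 was 0.972 to 1.37 times the level of Mrgprb5 in sham and 1.63 to 2.89 times after axotomy, with no overlap. The log2 ratio rose by 0.74 (0.75 in females and 0.73 in males, exact permutation p = 0.00476, adjusted p = 0.0125 over the 21 ratios), and it stayed between 0.63 and 0.81 when any 1 library was left out. Their transcripts can be told apart by the reads: 10.6% of the 31-base stretches of Mrgprb4 and 7.45% of those of Mrgprb5 occurred in another gene.

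The 2 itch neuron receptors also differed. Mrgpra3 was 0.487 to 0.600 times the level of Mrgprx1 in sham and 0.580 to 1.06 times after axotomy, overlapping in the first male axotomy library only. The log2 ratio of Mrgpra3 to Mrgprx1 rose by 0.61 (exact permutation p = 0.0238, adjusted p = 0.0357). Mrgprd fell relative to Mrgpra3 by 0.60 log2 units and relative to Mrgprb4 by 0.89, with no overlap (exact permutation p = 0.00952 and 0.00476, adjusted p = 0.02 and 0.0125). Mrgprd moved towards the lower level of its neighbour Mrgprf: the mean log2 ratio of Mrgprd to Mrgprf went from 5.36 in sham to 3.93 after axotomy, with a change of -1.06 in females and -1.80 in males (exact permutation p = 0.00476, adjusted p = 0.0125).

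**Figure D4:**
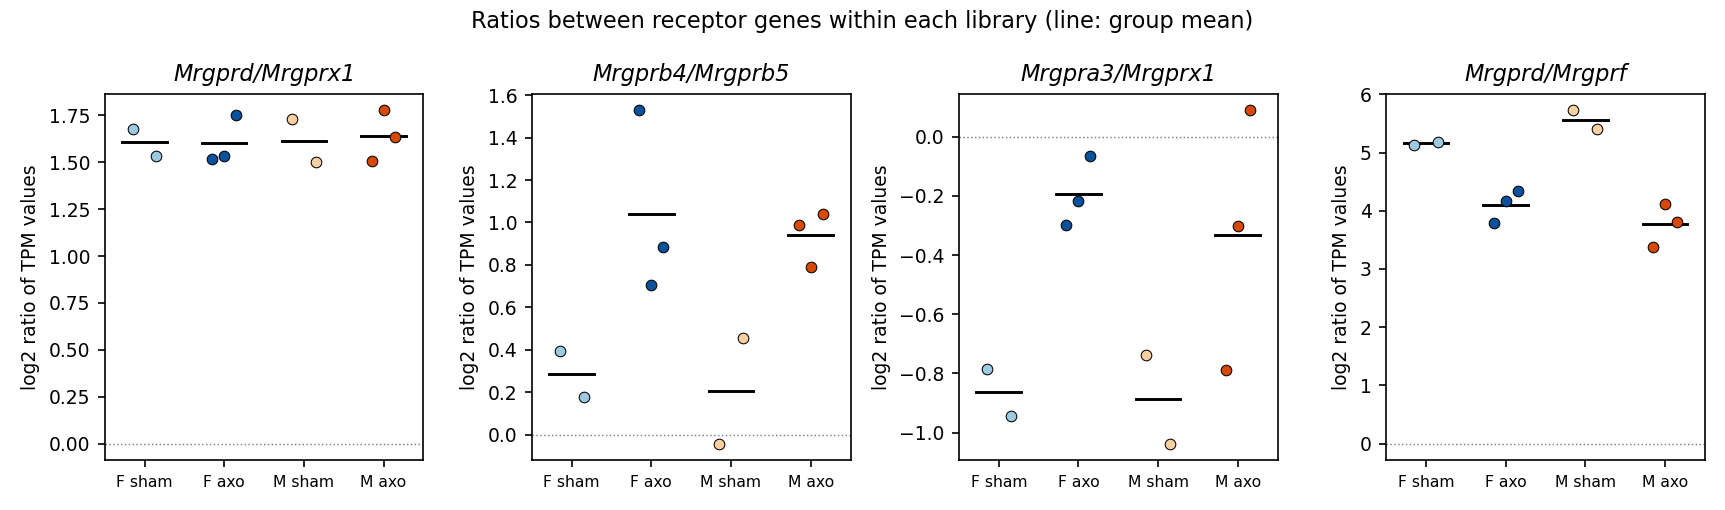
Log2 ratio of the TPM values of 2 receptor genes within each library (y axis), by sex and operation; points are libraries, solid lines group means and the dotted line equal levels. Mrgprd/Mrgprx1 reaches at most 1.78 and shows no shift between the groups, Mrgprb4/Mrgprb5 and Mrgpra3/Mrgprx1 are higher after axotomy, and Mrgprd/Mrgprf is lower.

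Among all 13899 protein-coding genes of at least 1 CPM outside the family, those whose level followed each receptor most closely over the 10 libraries were listed by Pearson r of log2 CPM, as a description over libraries that share depth and composition. Mrgprd was followed by Galnt5 (r = 0.990), Slc43a2 (0.987) and Ncald (0.986), and Mrgprx1 by Ltbp3 (0.991), Kank4 (0.990) and Kcnk1 (0.990). For Mrgprf the closest were Lgi4 (0.980), a secreted protein of glia in peripheral nerve, Gtdc1 (0.977) and Rab32 (0.977). Mrgpre was followed by Trim46 (0.976), Armh3 (0.967) and Lipa (0.963), and Mrgprb5 by Cdkl1 (0.961), Pgap1 (0.948) and Tet1 (0.943). The likeness was weaker for Mrgpra3, led by Bmp15 (0.944), Nxpe2 (0.930) and Dzip1l (0.901), and for Mrgprb4, led by Dph6 (0.896), Zfp952 (0.893) and Zfp658 (0.891).

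Downstream of these receptors, 9 of 19 genes of G proteins and channels fell and 4 rose in the average over both sexes, with a median log2 fold change of -0.09, where 22.2% of all genes fell and 24.4% rose. Plcb3, the phospholipase C that relays Mas-related receptor signals, went from 219 to 264 TPM in the 4 sham libraries to 99.2 to 174 TPM in the 6 axotomy libraries, and fell by 0.68 on the log2 scale (SE 0.096, adjusted p = 0.000479). Gnai1 (-0.41) and Gnao1 (-0.47), inhibitory and brain-enriched G protein subunits, fell too, while Itpr1, a calcium release channel, rose by 0.81 (adjusted p = 3.62e-05). The channels moved less. In the average Trpa1 rose by 0.22 (adjusted p = 0.00943), while its TPM overlapped (up to 29.7 in sham and up to 31.3 after axotomy). Its log2 fold change was 0.38 in males (adjusted p = 0.00525) and 0.06 in females (adjusted p = 0.643). The difference between the sexes in its response did not pass (0.32, adjusted p = 0.325). Trpv1 had an average log2 fold change of 0.00 (95% interval -0.14 to 0.14, adjusted p = 0.988).

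Of receptors and transmitters of itch outside the family, 22 were tested, 5 fell and 9 rose in the average, with a median of 0.23 log2 units against 0.02 over all genes. The number that fell was near the share of all genes (22.2%), and 24.4% of all genes rose. Grp rose by 2.11 and Nts by 1.64, both transmitter precursors, and Nppb, the transmitter precursor of a further itch neuron class, went from 24.3 to 36.9 TPM in sham to 39.2 to 60.5 TPM after axotomy (log2 fold change 1.01, SE 0.142, adjusted p = 0.000472). Grp rested on a mean of only 40.8 counts. The cytokine receptor genes Il13ra1 (0.85) and Il4ra (0.79) rose, and Hrh1, a histamine receptor, had a log2 fold change of 0.02 (adjusted p = 0.95). The 5 genes that fell included Htr7 (-0.94, adjusted p = 0.000281), Lpar5 (-0.84) and Ednra (-0.81).

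Other genes of non-peptidergic C fibres, a list chosen with earlier results of these data known, moved mostly with Mrgprd in the average. There 9 of 13 fell and 2 rose, with a median of -0.44, where 22.2% of all genes fell and 24.4% rose. In females 5 fell and 1 rose, where 9.7% of all genes fell and 10.5% rose. In males 9 fell and none rose, where 19.4% of all genes fell and 22.6% rose. Gfra2, the neurturin co-receptor of these neurons, fell by 0.70 in the average (adjusted p = 0.00172) and Cd55 by 0.49. Scn11a, a sodium channel of nociceptors, fell by 0.48, and Grik1, a kainate receptor subunit, by 0.44. P2rx3, the ATP-gated channel of the same neurons, rose by 0.20 in the average (adjusted p = 0.0402), with overlapping TPM of 233 to 237 in sham and 189 to 287 after axotomy. It passed in neither sex alone (adjusted p = 0.105 in females and 0.294 in males). Of 10 transcription factors and receptors that shape these neurons in development, 6 fell and none rose in the average. Those with the smallest adjusted p (0.000127 to 0.00186) were Prdm12 (-0.76), Isl1 (-0.44) and Runx1 (-0.38), the last being the factor that establishes Mas-related receptor expression. In females Isl1 (adjusted p = 0.102) and Runx1 (adjusted p = 0.137) did not pass. Among pan-neuronal markers, which include Isl1, 6 of 10 fell as well in the average, with a median of -0.27.

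Of 8 genes for ligand precursors and ligand-releasing proteases, 5 were tested, and 2 rose and none fell in the average, where 24.4% of all genes rose. Ctss, the protease cathepsin S, rose by 0.96 on the log2 scale in the average (adjusted p = 0.00345) and by 1.54 in males (adjusted p = 0.00341), while its log2 fold change in females was 0.39 (adjusted p = 0.38). The difference between the sexes in its response did not pass (1.15, adjusted p = 0.307). Pomc, a peptide precursor, rose by 1.04 in the average (adjusted p = 0.00374), on a mean of 79.7 counts. All 6 macrophage markers also rose in the average, and 1 of them in females, from a summed 31.3 to 43.3 CPM in sham libraries to 42.6 to 109 CPM in axotomy libraries, and their part in the Ctss result was not tested. Penk, the precursor of the Mrgprx1 ligands, had a log2 fold change of 0.15 (95% interval -0.18 to 0.49, adjusted p = 0.458). It was named for that role after its value was known.

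The family holds 27 further genes in these files, 14 annotated as protein-coding and 13 as pseudogenes, of which 12 had under 3 counts on average and 6 had no count in any library. The most abundant was the pseudogene Mrgprx3-ps, which went from 68.0 to 77.5 TPM in sham to 37.6 to 58.1 TPM after axotomy and fell by 0.44 on the log2 scale in the average (SE 0.12, adjusted p = 0.0142). Mrgpra2b and Mrgpra2a followed, at means of 17.7 and 4.30 TPM, but they share 87.2% to 92.0% of their 31-base stretches with each other, so the split between them is uncertain. In males Mrgprb1 (2.67), Mrgprb2 (2.03), Mrgprx2 (1.77) and Mrgpra9 (1.42) rose and Mrgpra1 (-0.91) fell (adjusted p = 0.00359, 0.0155, 0.0609, 0.00962 and 0.0925), on at most 89 counts in a library. Of all genes, 22.6% rose and 19.4% fell in males. In females none of these genes passed (log2 fold changes of -0.48, -1.15, -0.50, -0.045 and -0.10 in the same order). The difference between the sexes in response passed for none of them (adjusted p = 0.18 to 0.581). Mas1, Mrgprh, Mrgpra4 and the pseudogenes Mrgprc1-ps, Mrgprc2-ps and Mrgprb12-ps did not pass in either sex or in the average (adjusted p = 0.127 to 0.949), and Mrgprb11-ps, at up to 13 counts in a library, was removed by the low-count filter. Mrgprb2 is the family's receptor of mast cells. Of 8 mast cell markers, 6 rose and 1 fell in males, where 22.6% of all genes rose and 19.4% fell. In females 1 rose and none fell, where 10.5% of all genes rose and 9.7% fell. The markers summed to 101 to 102 CPM in sham and 80.9 to 104 CPM after axotomy in males. In females they summed to 101 to 107 CPM and 73.3 to 82.4 CPM. The sum is led by Kit, which sensory neurons also express and which was the marker that fell in males. The part of mast cells in these results was not tested.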

How the data were processed

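Poly-A RNA-seq libraries of 10 DRG pools were used. Per the submitters' processing notes and the methods, the authors ran Trimmomatic 0.39, then Salmon 1.3.0 against Gencode M27 transcripts with sequence and GC bias corrections. No strand setting is named in these sources. The deposited files hold estimated counts, TPM and effective lengths per transcript. Salmon divides reads shared by similar transcripts, which can move counts between relatives.

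TPM were summed per gene. Estimated counts were summed, rounded to whole numbers and fitted in edgeR 4.0.16 (R 4.3.3; quasi-likelihood, robust, TMM, average effective length offset, filterByExpr with a minimum of 10) with a mean per group over all 10 libraries; SE is the log2 fold change divided by the root of F. The 4 groups share the spread, since a sham group has 2 libraries. Log2 CPM used a prior count of 2. Fits were tested on simulated data.

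The 7 genes were taken by symbol. The lists and the named genes (the 7 genes, family genes with a mean of at least 3 counts, up to 4 members of a list with the smallest adjusted p, Trpa1, Trpv1, Plcb3, P2rx3, Nppb, Hrh1, and the 3 genes most like each receptor) were chosen with earlier results of these data known. Htr7, Lpar5 and Ednra were named after their values were known. Gene positions and the 31-base comparison used Gencode M21 (GRCm38), whose transcripts of the 7 genes have the lengths in the files. Alternatives were DESeq2 1.42.0, other scaling, filter, threshold and samples, and a replicate block. A gene of these lists is not reported here.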

Additional observations from a re-analysis of the deposited data

Results flagged for a closer look

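Mrgprb2, the mast cell receptor of the family, was lower in every female axotomy library than in both female sham libraries and higher in every male axotomy library than in both male sham libraries. It had 18 and 7 counts in female sham and 5, 5 and 5 in female axotomy libraries, and 6 and 5 counts in male sham and 30, 16 and 25 in male axotomy libraries. The male response minus the female response was 3.18 log2 units in edgeR (95% interval 1.48 to 4.88, adjusted p = 0.216), which did not pass. Between the sexes after axotomy it was 2.00 log2 units higher in males (95% interval 0.95 to 3.05, adjusted p = 0.0977), which passed. Of all genes, 1.63% passed this comparison. Mrgprb2 was picked by its pattern in these same libraries, among the 7 genes and 15 further family genes with a mean of at least 3 counts. The pass is therefore not separate support for the pattern. Groups of 2 and 3 libraries were too small for a search for single outlying libraries.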

How the results depend on the processing

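Under the alternatives, 700 log2 fold changes were obtained, each for a single gene, comparison and alternative. None turned the direction of a call, 12 lost a call and 12 gained one. The other 676 passed or did not pass as in the main fit, and they include values that passed in neither. The main fit had calls for 2 genes in females, 4 in males and 4 in the average, and none between the sexes. The falls of Mrgprd and Mrgprx1 in each sex and the rise of Mrgprf in males and in the average held under every alternative run. Mrgprb5 in the average was lost without the low-count filter (adjusted p = 0.161) and with pan-neuronal scaling (0.153), and without either female sham library, the first male sham or the first male axotomy library (0.101 to 0.256). In males it passed by DESeq2 (adjusted p = 0.0871) and without any of 3 single libraries, the second male sham, the third male axotomy or the first female axotomy library (0.064 to 0.0957). Mrgpre in males was lost in a fit of the male libraries alone (0.151). Leaving out 1 library at a time, 0 to 2 genes passed for the difference in response between the sexes and 0 to 2 between the sexes after axotomy, the 2 only without the second male axotomy library.

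The replicate number of the labels showed no strong pairing of the libraries: over 13 pairs with a shared number, deviations from the group means correlated at -0.11 to 0.146, and 2 pairs were over 0.1. Deviations in a sham group of 2 libraries mirror each other, so the pairs are not independent. Pairs with different numbers were not compared, so these values cannot decide whether a batch was shared. With the number as a replicate block, 3 genes passed in females, 5 in males and 5 in the average, Mrgprb5 in all of them and Mrgpra3 in the average. Levels from TMM-scaled counts per effective length were lower in sham, for Mrgprd 90.4 in place of 96.3 in female sham, and left the order of the 7 genes as it was in sham and after axotomy. The 95% intervals of the average log2 fold change ran from -0.50 to 0.23 for Mrgpra3, -0.23 to 0.55 for Mrgprb4 and -1.08 to -0.10 for Mrgprb5.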
